A study of Mus musculus with 8 samples.

Results

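The genes described here are the Wnt ligands and the genes that carry or restrain their signal: the Frizzled receptors, the LRP5 and LRP6 co-receptors, the R-spondins and their LGR receptors, the secreted DKK and SFRP inhibitors, the beta-catenin destruction complex, the TCF and LEF transcription factors and the feedback inhibitors. They were picked by symbol from a count table of 25240 genes, and 60 genes matched. The rule itself used no measured value, but it was set with earlier results of these data known. The match on Frizzled names also took in Fzd10os, an antisense gene that is not a receptor. Of the 60 genes, 42 had enough reads to be tested (at least about 10 counts in 4 libraries, by edgeR's own filter), and 14284 genes were tested in all.

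RNA was sequenced from 4 libraries of Tomato-positive and 4 of Tomato-negative kidney cells. The mice were p16-tdTomato animals with chronic kidney disease after an adenine-rich diet, so that the disease and the reporter allele are shared by both groups and no healthy kidney is among the libraries. The reporter pairs p16, a brake on the cell cycle used as a mark of senescence, with a red fluorescent protein. The sources used here do not give the reporter's construction, the sort or the age of the animals. Nothing in the labels ties a library to an animal of its own, so p-values measure the spread between these libraries. Each title identifier (CKD627_1, CKD627_2, CKD523_2 and CKD523_3) named 1 positive and 1 negative library, which makes 4 pairs in 2 prefixes. What the prefixes stand for is not given in the labels.

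Wnt proteins are secreted lipid-modified ligands that act over short distances. When a Wnt binds a Frizzled receptor together with LRP5 or LRP6, the destruction complex built on AXIN and APC stops degrading beta-catenin, which then enters the nucleus and switches on target genes with TCF and LEF factors. Some of those targets, Axin2, Rnf43, Znrf3, Nkd1 and Notum among them, feed back to dampen the pathway. In the developing mouse kidney, Wnt9b from the ureteric bud epithelium induces nephron progenitors, Wnt4 drives their turn into epithelium, and Wnt7b from the collecting duct shapes the medulla.

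The libraries held between 13474439 and 19886202 counts, and 1 CPM, a count scaled to the total of its library, stood for 13.5 to 19.9 counts. The tdTomato transcript had 3167 to 4143 CPM in Tomato-positive libraries, against 79.5 to 159 CPM in Tomato-negative libraries. The labels call every library proximal tubular epithelial cells, but defining transcripts of other nephron segments were present throughout. The summed level of 13 principal cell markers (the collecting duct cell that takes up water and sodium) was 4337 to 8625 CPM in Tomato-positive and 1767 to 4883 CPM in Tomato-negative libraries, and 11 of the 13 passed the paired test, all higher. The summed level of 18 proximal tubule markers was 4781 to 12436 CPM in Tomato-positive and 7322 to 27683 CPM in Tomato-negative libraries, and 9 of the 18 passed the paired test, all lower. In bulk RNA of this kind, more cells of a type and more RNA per cell cannot be told apart.

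Tomato-positive cells carried more Wnt ligand RNA. The 19 ligand genes together had 424, 449, 476 and 498 CPM in the Tomato-positive libraries of CKD627_1, CKD627_2, CKD523_2 and CKD523_3, against 254, 234, 207 and 176 CPM in the Tomato-negative libraries of the same identifiers. The positive libraries were all above the negative ones, at 1.67 to 2.83 times the level within a pair. Wnt9b, Wnt7b and Wnt7a rose, with Axin2 and Rnf43, both feedback genes, and Tcf7l1, a TCF factor. With and without pairing, edgeR's main fits over all libraries called none of the Frizzled, LRP and LGR receptors. They also called none of the DKK, SFRP and Notum inhibitors. Some edgeR alternatives over all libraries called Sfrp1 lower, such as the fit with the prefix as a covariate (-1.03 log2 units, adjusted p = 0.0264).

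In numbers, edgeR's quasi-likelihood test without pairing called 2 of the 42 tested genes (Wnt9b and Rnf43), both higher, where 0.364% of all genes tested were called higher and 0.231% lower. With the title identifier as a block (the paired fit below), it called 6, all higher (Wnt9b, Wnt7b, Wnt7a, Axin2, Rnf43 and Tcf7l1), where 3.82% of all genes were called higher and 3.81% lower. None was called lower by either fit. At an unadjusted p below 0.05, edgeR's test had 8 of the 42 genes higher and 1 lower without pairing, where 8.86% of all genes were higher and 8.98% lower. With pairing it had 9 higher and 4 lower, where 12.7% of all genes were higher and 12.3% lower. With pairing, DESeq2 and limma-voom each called 2 lower (Dkk3 and Sfrp1), against 7.39% of all genes by DESeq2 and 5.01% by limma-voom. Called higher were 6 by DESeq2 without pairing (3.38% of all genes), 8 by DESeq2 with pairing (6.79%) and 7 by limma-voom with pairing (4.71%). Of the 42 genes, 5 had every positive library above every negative one, against 7.13% of all genes, and 0 had every positive library below, against 5.69%. In all 4 pairs 12 were higher, against 19.9% of all genes, and 1 was lower, against 15.5%. The median log2 difference of the 42 was 0.17 in the paired fit, where that of all genes was 0.01.

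**Figure D1:**
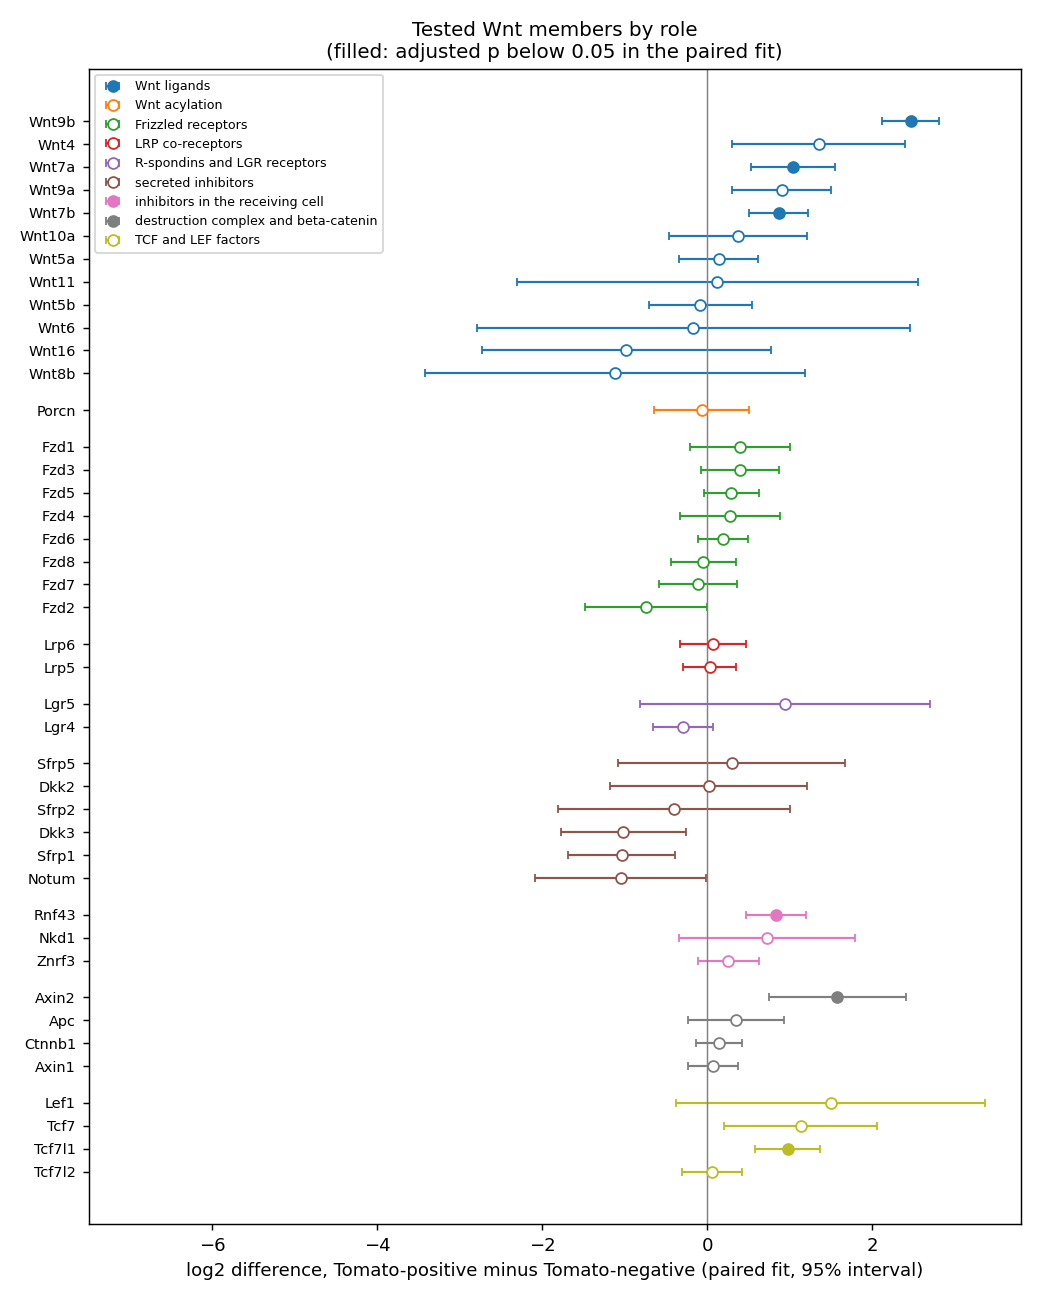
Log2 difference of each tested gene, Tomato-positive minus Tomato-negative, from the paired fit with its 95% interval, grouped by role and ordered by size within each role. Filled points mark the 6 genes past an adjusted p of 0.05, all to the right of 0, with Wnt9b farthest at 2.47.

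Wnt9b (chr11:103727364-103749821, minus strand, GRCm38) had the largest difference of the called genes. It had 117, 180.3, 68.7 and 65.3 CPM in the Tomato-positive libraries of CKD627_1, CKD627_2, CKD523_2 and CKD523_3. The Tomato-negative libraries of those identifiers had 23.7, 26.3, 12.2 and 11.99 CPM. Every positive library stood above every negative one, by 4.95 to 6.86 times within a pair, and both groups were higher in CKD627 than in CKD523. The log2 difference was 2.51 ± 0.37 (SE; edgeR's unpaired test, adjusted p = 0.0387) and 2.47 ± 0.15 in the paired fit, a 5.54-fold difference (edgeR's paired test, adjusted p = 0.000491). Without any 1 library the unpaired call was lost (edgeR, adjusted p between 0.0516 and 0.144), whereas it was kept in the paired fit without any 1 pair (edgeR, adjusted p between 0.00045 and 0.00509).

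The promoters of Wnt9b and of Axin2, the feedback gene with the largest called difference, are shown because both rose in the paired fit. Each line holds the 250 bases before the RefSeq transcript start (GRCm38.p6), on the gene's own strand, at chr11:103749822-103750071 for Wnt9b (minus strand) and chr11:108920099-108920348 for Axin2 (plus strand). Neither window overlaps an annotated exon of GENCODE M21. Capitals mark the GC box, GGGCGG or its reverse complement CCGCCC, to which SP1 family factors bind.

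Wnt9b promoter: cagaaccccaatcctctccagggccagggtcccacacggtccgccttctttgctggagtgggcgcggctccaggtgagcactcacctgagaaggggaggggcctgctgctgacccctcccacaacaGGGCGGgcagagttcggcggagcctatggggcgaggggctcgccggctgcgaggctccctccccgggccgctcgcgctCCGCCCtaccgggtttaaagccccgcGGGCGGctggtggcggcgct

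Axin2 promoter: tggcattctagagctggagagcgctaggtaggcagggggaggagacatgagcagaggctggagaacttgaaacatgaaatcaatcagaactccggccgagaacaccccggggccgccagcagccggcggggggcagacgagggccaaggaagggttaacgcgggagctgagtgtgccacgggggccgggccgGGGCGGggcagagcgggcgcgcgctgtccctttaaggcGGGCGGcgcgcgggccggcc

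The Wnt9b window was 72% G or C with 3 GC boxes, and the Axin2 window 69.2% with 2. At least 1 GC box stood in 32.7% of the 32851 RefSeq windows of this length. The core of TCF and LEF sites, CTTTGA or CTTTGT on either strand, was in neither window, and 27.6% of all windows held it. The 37 Wnt pathway members with an entry had 47 windows, of which 10 (21.3%) held that core. The window of Tcf7l1 was among them, with CTTTGT on the gene's own strand 28 bases before its RefSeq start. That window overlaps an annotated exon of GENCODE M21, so part of it lies inside a transcribed region. A match in these letters describes the window only.

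Wnt7b (chr15:85535437-85582473, minus strand) was the most abundant ligand per kilobase of exon in both groups. Its level was 43.9 ± 9.04 CPM per kb in Tomato-positive and 23.1 ± 2.22 CPM per kb in Tomato-negative libraries (SD, n = 4 each). Per library, it had 189, 168, 236 and 266 CPM in Tomato-positive cells of CKD627_1, CKD627_2, CKD523_2 and CKD523_3, against 126, 109.8, 118 and 100.2 CPM in Tomato-negative cells. The groups did not overlap, and the ratio within a pair was 1.504 and 1.534 in CKD627, against 2.01 and 2.65 in CKD523. The log2 difference was 0.87 ± 0.16 in the paired fit (edgeR, adjusted p = 0.0153) and 0.90 ± 0.18 without pairing (edgeR, adjusted p = 0.0618).

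Wnt7a (chr6:91363981-91411363, minus strand), the close relative of Wnt7b, had 26.0, 22.5, 10.8 and 5.94 CPM in Tomato-positive cells, against 14.3, 13.2, 3.77 and 2.57 CPM in Tomato-negative cells of the same identifiers in the same order. It was higher in the positive library of all 4 pairs, but the CKD523 positive libraries lay below the CKD627 negative ones, so the groups overlapped. Its log2 difference was 1.04 ± 0.22 in the paired fit (edgeR, adjusted p = 0.028) and 0.94 ± 0.59 without pairing (edgeR, adjusted p = 0.436). Without the pair CKD627_1 the calls of Wnt7a and Wnt7b were kept, and without any 1 of the other 3 pairs both were lost (edgeR's paired test, highest adjusted p 0.117 for Wnt7a and 0.102 for Wnt7b).

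Wnt9b took a larger part of the ligand RNA in Tomato-positive cells. Of the summed ligand level per kilobase, Wnt9b made up 27.4%, 39.3%, 14.0% and 12.9% in the Tomato-positive libraries of CKD627_1, CKD627_2, CKD523_2 and CKD523_3, against 8.8%, 10.8%, 5.76% and 6.83% in the Tomato-negative ones. In the order of ligands by mean level per kilobase, Wnt9b ranked 2 in Tomato-positive cells and 4 in Tomato-negative cells. Its mean of 23.9 ± 11.9 CPM per kb in positive libraries (SD, n = 4) overlapped that of Wnt4 at rank 3, 13.2 ± 5.20 CPM per kb, within their spread. Without Wnt9b, the summed ligands were 354 ± 78.5 CPM in Tomato-positive and 199 ± 27.8 CPM in Tomato-negative libraries (SD, n = 4 each).

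**Figure D2:**
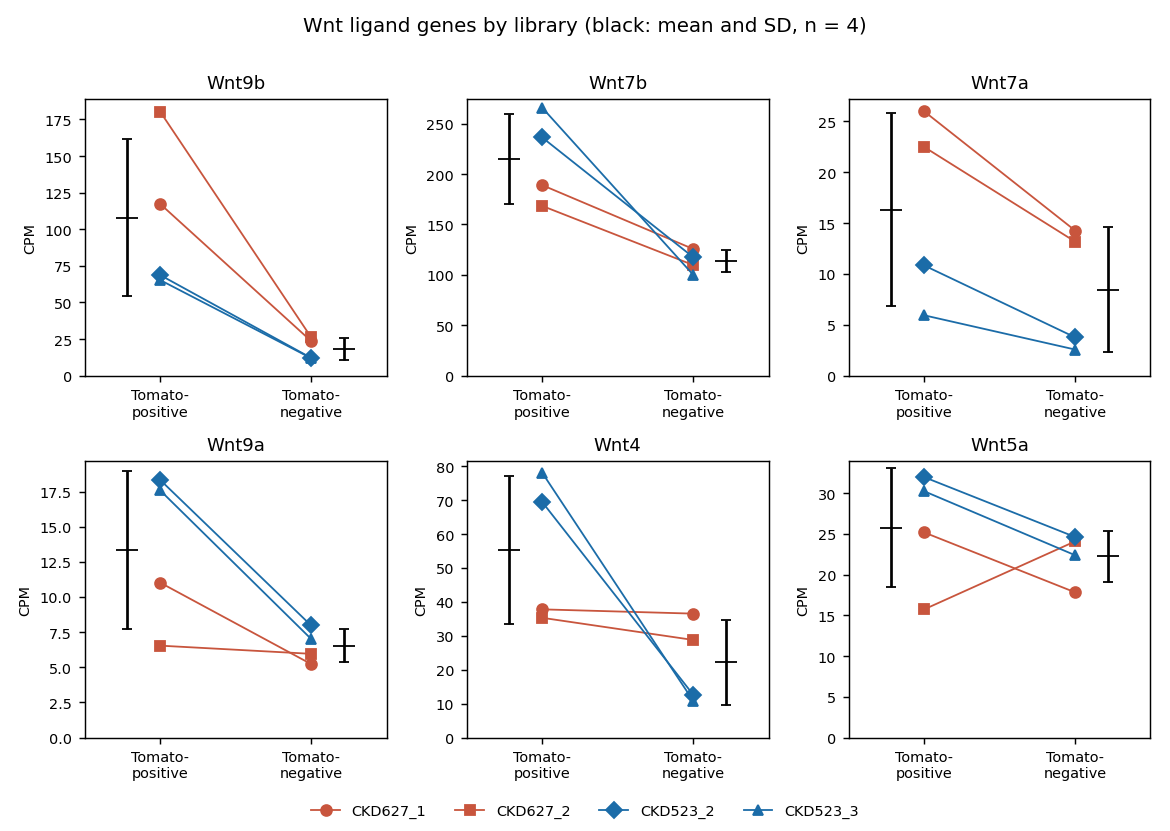
CPM of 6 Wnt ligand genes in each library, Tomato-positive left and Tomato-negative right, with lines joining the libraries of 1 identifier and the mean and SD (n = 4) in black beside them. Wnt9b and Wnt7b separate the groups, Wnt7a is higher at the positive end of every line with the groups overlapping, and Wnt4 differs steeply in CKD523 and little in CKD627.

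Wnt4 depended on the prefix. It had 37.8 and 35.3 CPM in Tomato-positive cells of CKD627, against 36.5 and 28.8 CPM in Tomato-negative cells. In CKD523 it had 69.5 and 78.1 CPM in Tomato-positive cells, against 12.7 and 10.9 CPM in Tomato-negative cells. The positive library was higher in all 4 pairs, by 1.03 to 1.23 times in CKD627 and 5.48 to 7.18 times in CKD523. Over all libraries the log2 difference did not pass in edgeR's main fits (1.35 ± 0.46 in the paired fit, adjusted p = 0.111). It passed edgeR's paired test with no filter beyond 1 count (1.33 log2 units, adjusted p = 0.0483). With 1 pair left out, the adjusted p of edgeR's paired test ran from 0.0349 (without CKD627_1) to 0.344. Wnt4 also passed by DESeq2 without pairing (adjusted p = 0.0347), and by edgeR's unpaired test in CKD523 alone (2.58 log2 units, adjusted p = 3.43e-05). The difference between the prefixes itself passed, at -2.41 ± 0.29 log2 units, CKD627 minus CKD523 (edgeR's interaction test, adjusted p = 0.0458), and Wnt4 was the only 1 of the 42 genes past that test, where 0.14% of all genes were. That call was lost without the pair CKD523_2 and when libraries were scaled by their totals alone.

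Wnt9a (the neighbour of Wnt3a) was higher in the positive library of all 4 pairs, with 11.02, 6.54, 18.3 and 17.6 CPM in Tomato-positive cells, against 5.23, 5.96, 7.97 and 7.02 CPM in Tomato-negative cells of the same identifiers. Its log2 difference of 0.90 ± 0.26 did not pass in the paired fit (edgeR, adjusted p = 0.0743). It passed with pairing by DESeq2 (adjusted p = 0.0294) and limma-voom (adjusted p = 0.046), and by edgeR in CKD523 alone (adjusted p = 0.0118). Over the paired alternatives with all libraries its adjusted p ran from 0.0294 to 0.0859, and with 1 pair left out from 0.0751 to 0.278 (edgeR). Wnt5a, a ligand best known for signalling without beta-catenin, averaged 25.8 ± 7.30 CPM in Tomato-positive and 22.2 ± 3.09 CPM in Tomato-negative libraries (SD, n = 4 each). Its relative Wnt5b averaged 9.72 ± 5.21 CPM in Tomato-positive and 9.09 ± 1.67 CPM in Tomato-negative libraries, and Wnt10a 14.6 ± 6.41 and 10.9 ± 3.86 CPM in the same order. For these 3 ligands the libraries of the groups overlapped.

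The remaining ligands were scarce. Wnt6, Wnt8b, Wnt11 and Wnt16 passed the filter with at most 2.81 CPM in any library. Wnt2, Wnt2b and Wnt10b did not pass, with at most 17 counts in a library. Wnt1, Wnt3, Wnt3a and Wnt8a had 0 counts in all 8 libraries, where the floor of 3 counts stood for 0.151 to 0.223 CPM; this floor covers counting error only. Several Wnt genes lie side by side as pairs with no protein-coding gene between them, and 3 of the ligands at 0 are such neighbours. Wnt3 lies 24328 bases from Wnt9b on chromosome 11, Wnt3a lies 16175 bases from Wnt9a on the same chromosome, and Wnt1 lies 11706 bases from Wnt10b on chromosome 15. In these libraries reads therefore came from Wnt9b and Wnt9a but not detectably from the partner gene next to each. Porcn, the enzyme that attaches the lipid to Wnt proteins, averaged 9.52 ± 0.474 CPM in Tomato-positive and 9.92 ± 2.52 CPM in Tomato-negative libraries (SD, n = 4 each).

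None of the 8 tested Frizzled receptors was called by edgeR in either fit, nor by DESeq2 or limma-voom with or without pairing, and 1 (Fzd2) had an unadjusted p below 0.05 in the paired fit. Fzd4 and Fzd6 had the highest levels per kilobase, Fzd4 at 15.04 ± 9.25 and Fzd6 at 14.9 ± 3.09 CPM per kb in Tomato-positive libraries (SD, n = 4), against 10.7 ± 3.68 for Fzd4 and 12.6 ± 1.98 CPM per kb for Fzd6 in Tomato-negative ones. Fzd1 followed at 12.8 ± 3.44 CPM per kb in Tomato-positive and 9.40 ± 2.55 CPM per kb in Tomato-negative libraries. The order of these 3 neighbours is within their spread. In CKD627 Fzd1 had 61.7 and 69.2 CPM in Tomato-positive cells, against 29.1 and 32.7 CPM in Tomato-negative cells, and was called in that prefix alone (1.05 log2 units, edgeR, adjusted p = 0.0498). In CKD523 it had 46.2 and 37.4 CPM in Tomato-positive cells, against 52.7 and 43.4 CPM in Tomato-negative cells. The difference between the prefixes did not pass edgeR's interaction test (1.36 ± 0.25 log2 units, CKD627 minus CKD523, adjusted p = 0.0812) and passed DESeq2's (adjusted p = 0.00467).

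Fzd2 was the only tested gene among the 42 that was lower in the positive library of all 4 pairs. It had 9.05, 10.1, 1.86 and 1.07 CPM in Tomato-positive cells, against 9.66, 15.5, 3.28 and 2.92 CPM in Tomato-negative cells of CKD627_1, CKD627_2, CKD523_2 and CKD523_3. The prefixes were farther apart than the Tomato groups, and the difference did not pass (-0.74 ± 0.33 log2 units, edgeR's paired test, adjusted p = 0.199). Fzd9 and Fzd10 were below the filter, with at most 22 counts in a library, and so was Fzd10os, with 1 count in all.

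The co-receptors Lrp5 and Lrp6, which Frizzleds need to reach the destruction complex, had near equal means. Lrp5 averaged 107 ± 23.8 CPM in Tomato-positive and 103 ± 28.5 CPM in Tomato-negative libraries, and Lrp6 averaged 144 ± 10.5 CPM in Tomato-positive and 135 ± 27.0 CPM in Tomato-negative libraries (SD, n = 4 each). In the paired fit the 95% interval of the log2 difference was -0.29 to 0.35 for Lrp5 and -0.33 to 0.47 for Lrp6.

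R-spondins are secreted proteins that keep Frizzleds at the cell surface by binding LGR4 to LGR6 and the ubiquitin ligases RNF43 and ZNRF3. Lgr4 was the LGR receptor of these cells. It had 188, 201, 239 and 233 CPM in Tomato-positive cells, against 175, 211, 352 and 331 CPM in Tomato-negative cells of CKD627_1, CKD627_2, CKD523_2 and CKD523_3. The CKD523 negative libraries stood above all others, and the difference over all libraries did not pass (edgeR's paired test, adjusted p = 0.289). In CKD523 alone Lgr4 was called lower (-0.61 log2 units, edgeR's unpaired test, adjusted p = 0.00451). Lgr5, a Wnt target and stem cell marker, had 4.59, 2.41, 0.891 and 0 CPM in Tomato-positive cells, against 2.15, 2.21, 0.214 and 0 CPM in Tomato-negative cells of those identifiers (0.95 ± 0.76 log2 units, edgeR's paired test, adjusted p = 0.486). The R-spondin genes themselves were almost silent, with at most 10 counts of Rspo1 in a library, at most 9 of Rspo3 and 1 of Rspo4, and 0 counts of Rspo2 in all 8. Lgr6 was below the filter too, with 0 counts in the Tomato-positive libraries and at most 5 in a Tomato-negative one.

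Over all libraries, edgeR called none of the 6 tested DKK, SFRP and Notum genes in either fit. Sfrp1, a Frizzled-like decoy that binds Wnts and the most abundant of these inhibitors per kilobase, had 89.6, 61.3, 25.7 and 18.4 CPM in Tomato-positive cells. The Tomato-negative cells of CKD627_1, CKD627_2, CKD523_2 and CKD523_3 had 80.7, 131, 61.4 and 64.4 CPM. It was lower in the positive library of 3 of 4 pairs and higher in CKD627_1, at a log2 difference of -1.04 ± 0.29 (edgeR's paired test, adjusted p = 0.0637). DESeq2's paired test called it (adjusted p = 0.00251). In CKD523 alone, edgeR called Sfrp1 as well (-1.59 log2 units, adjusted p = 0.000466). Over the paired alternatives with all libraries (edgeR, DESeq2 and limma-voom) the adjusted p ran from 0.00251 to 0.064, and with 1 pair left out from 0.00368 to 0.199.

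Dkk3, a divergent DKK family protein, had 7.54, 8.60, 6.16 and 8.14 CPM in Tomato-positive cells, against 24.8, 26.4, 5.13 and 13.2 CPM in Tomato-negative cells of the same identifiers. It stood at 0.304 and 0.325 times the negative library in CKD627, and at 1.202 and 0.616 times in CKD523 (-1.02 ± 0.34 log2 units, edgeR's paired test, adjusted p = 0.103). Dkk1, the LRP6-binding inhibitor that is itself a Wnt target, had 0 counts in all 4 Tomato-positive libraries, against 8, 5, 2 and 6 counts in the Tomato-negative ones, and was below the filter. So were Dkk4, with 10 counts in 1 Tomato-positive library and 0 elsewhere, and Sfrp4, with at most 4 counts in a library. Notum, an enzyme that strips the lipid from Wnts, had 3.08, 0.603, 5.42 and 6.05 CPM in Tomato-positive cells, against 2.71, 3.81, 13.4 and 8.65 CPM in Tomato-negative cells (-1.05 ± 0.46 log2 units, edgeR's paired test, adjusted p = 0.196). Dkk2 and Sfrp2, which fibroblasts also express, varied more within the groups than between them, Dkk2 from 6.83 to 56.2 CPM in Tomato-positive and 11.6 to 48.8 CPM in Tomato-negative libraries. Sfrp2 ran from 1.48 to 22.9 CPM in Tomato-positive and 6.49 to 29.4 CPM in Tomato-negative libraries.

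Among the feedback genes that beta-catenin switches on, Axin2 and Rnf43 rose and the others did not pass. Axin2 (chr11:108920349-108950783, plus strand), the inducible scaffold of the destruction complex and the usual readout of the pathway, had 11.4, 8.35, 17.5 and 20.7 CPM in Tomato-positive cells. The Tomato-negative cells of CKD627_1, CKD627_2, CKD523_2 and CKD523_3 had 4.49, 4.42, 7.69 and 2.34 CPM. The groups did not overlap, and the ratio within a pair ran from 1.89 to 8.85, highest in CKD523_3. The log2 difference was 1.58 ± 0.37 in the paired fit, a 2.99-fold difference (edgeR, adjusted p = 0.0357), and 1.59 ± 0.43 without pairing (edgeR, adjusted p = 0.11). The call was kept without CKD627_1 (edgeR, adjusted p = 0.0435) and lost without any 1 of the other 3 pairs (edgeR, adjusted p up to 0.119).

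Rnf43 (chr11:87662722-87735539, plus strand) encodes a ubiquitin ligase that removes Frizzleds from the cell surface. It had 34.6, 34.2, 31.5 and 33.9 CPM in Tomato-positive cells, against 18.6, 22.5, 18.2 and 14.7 CPM in Tomato-negative cells of the same identifiers. The groups did not overlap, and the positive libraries lay between 31.5 and 34.6 CPM. The log2 difference was 0.83 ± 0.14 without pairing (edgeR, adjusted p = 0.0473) and 0.83 ± 0.16 with it, a 1.78-fold difference (edgeR, adjusted p = 0.0194). Leaving out any 1 library ended the unpaired call (edgeR, adjusted p between 0.0667 and 0.168), and without any 1 of CKD627_2, CKD523_2 and CKD523_3 the paired call ended (edgeR, adjusted p up to 0.13).

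Znrf3, the sister ligase of Rnf43, had 19.3, 33.7, 22.3 and 25.8 CPM in Tomato-positive cells, against 15.6, 24.5, 20.4 and 21.3 CPM in Tomato-negative cells. It was higher in the positive library of all 4 pairs, by 1.10 to 1.38 times, and did not pass (0.26 ± 0.16 log2 units, edgeR's paired test, adjusted p = 0.366). Nkd1, an inhibitor that binds Dishevelled, had 7.41, 3.22, 4.01 and 7.24 CPM in Tomato-positive cells, against 4.00, 3.61, 3.70 and 1.46 CPM in Tomato-negative cells (0.72 ± 0.47 log2 units, edgeR's paired test, adjusted p = 0.376).

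Beta-catenin and the constant parts Apc and Axin1 of the complex that degrades it were not called by edgeR in either fit. Ctnnb1, which encodes beta-catenin, had 1086, 1051, 846 and 817 CPM in Tomato-positive cells, against 962, 916, 724 and 741 CPM in Tomato-negative cells. The ratio within a pair was 1.10 to 1.17, and the log2 difference of 0.15 ± 0.12 had a 95% interval of -0.13 to 0.43 (edgeR's paired test, adjusted p = 0.506). Beta-catenin activity is set by the stability of the protein, which RNA does not measure. Apc averaged 104 ± 27.6 CPM in Tomato-positive and 79.1 ± 20.8 CPM in Tomato-negative libraries, and Axin1, the constitutive partner of Axin2, averaged 78.8 ± 11.4 CPM in Tomato-positive and 72.9 ± 10.9 CPM in Tomato-negative libraries (SD, n = 4 each). The positive libraries of Apc ran from 77.6 CPM in CKD523_2 to 140.1 CPM in CKD627_1, and Apc did not pass (edgeR's paired test, adjusted p = 0.431). Its ratio within a pair ran from 0.878 to 2.815. The 95% interval of its log2 difference in the paired fit, -0.23 to 0.93, leaves its size open.

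Of the 4 TCF and LEF factors, which bring beta-catenin to DNA, Tcf7l1 rose. Tcf7l1 (chr6:72626378-72789254, minus strand), best known as a repressor of Wnt targets until beta-catenin displaces it, was also the most abundant of the 4 per kilobase in both groups. It had 56.3, 45.5, 35.4 and 33.9 CPM in Tomato-positive cells, against 21.6, 27.0, 22.4 and 14.1 CPM in Tomato-negative cells of CKD627_1, CKD627_2, CKD523_2 and CKD523_3. The groups did not overlap. Its log2 difference was 0.98 ± 0.17 in the paired fit (edgeR, adjusted p = 0.0143) and 0.97 ± 0.21 without pairing (edgeR, adjusted p = 0.0631). The paired call was lost without CKD523_3 and without CKD627_2 (edgeR, adjusted p up to 0.0896).

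Tcf7, itself a target of the pathway, had 12.3, 6.19, 11.3 and 13.7 CPM in Tomato-positive cells, against 5.97, 7.43, 3.92 and 2.57 CPM in Tomato-negative cells. It was higher in the positive library of 3 of 4 pairs and lower in CKD627_2 (1.13 ± 0.41 log2 units, edgeR's paired test, adjusted p = 0.128). DESeq2's paired test called Tcf7 (adjusted p = 0.0492), and so did edgeR's unpaired test in CKD523 alone (1.88 log2 units, adjusted p = 0.00735). Lef1, also a target, was low and uneven, with 9.05, 5.98, 0.148 and 1.30 CPM in Tomato-positive cells, against 0.861, 2.81, 0.570 and 0.234 CPM in Tomato-negative cells (1.499 ± 0.83 log2 units, edgeR's paired test, adjusted p = 0.299). Tcf7l2 averaged 27.3 ± 4.98 CPM in Tomato-positive and 25.3 ± 3.35 CPM in Tomato-negative libraries (SD, n = 4 each).

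**Figure D3:**
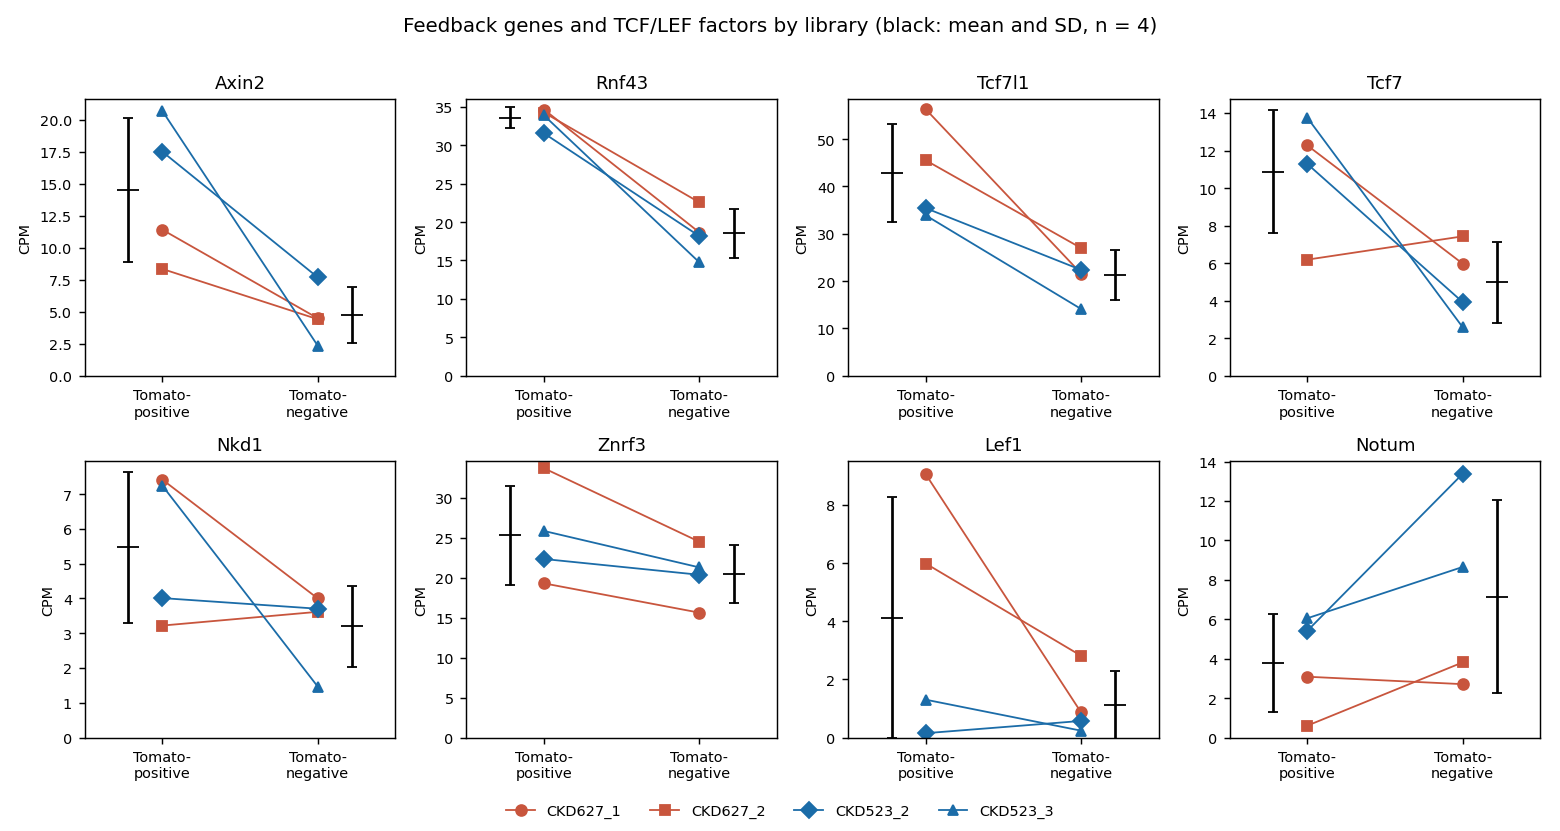
CPM of feedback genes and TCF and LEF factors in each library, Tomato-positive left and Tomato-negative right, with lines joining the libraries of 1 identifier and the mean and SD (n = 4) in black, cut at 0 for Lef1. Axin2, Rnf43 and Tcf7l1 separate the groups, while Tcf7, Nkd1, Lef1 and Notum have at least 1 line that runs the other way.

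Of 117 other Wnt pathway genes in the table, 107 were tested, and without pairing edgeR and limma-voom each called 0 of them. At an unadjusted p below 0.05, edgeR's unpaired test had 18 higher and 3 lower, where 8.86% of all genes were higher and 8.98% lower. DESeq2 without pairing called 8, all higher, where 3.38% of all genes were called higher. The paired fit called 9 higher and 3 lower (edgeR), where 3.82% of all genes were called higher and 3.81% lower. The list's median log2 difference was 0.27, and that of all genes was 0.01. Without the pair CKD523_3 it called 1, and without CKD627_2 it called 3. The largest called difference was that of Tnfrsf19, a TNF receptor family gene known as a target of beta-catenin. It had 23.4, 7.14, 24.4 and 36.6 CPM in Tomato-positive cells, against 1.23, 2.68, 4.91 and 1.23 CPM in Tomato-negative cells of CKD627_1, CKD627_2, CKD523_2 and CKD523_3. Its groups did not overlap (3.12 ± 0.54 log2 units, edgeR's paired test, adjusted p = 0.0134).

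Other called genes act at several levels of the pathway. Myc, a target gene that drives growth, averaged 152 ± 45.5 CPM in Tomato-positive and 81.7 ± 24.1 CPM in Tomato-negative libraries (SD, n = 4 each), and was higher in all 4 pairs (0.86 ± 0.14 log2 units, edgeR's paired test, adjusted p = 0.0115). Sox9, a transcription factor of injured and regenerating tubules that also restrains beta-catenin, averaged 116 ± 29.8 CPM in Tomato-positive and 69.7 ± 22.6 CPM in Tomato-negative libraries, with an adjusted p of 0.0159 in edgeR's paired test. Fat4 and Celsr2, large cadherins of planar cell polarity, rose by 1.92 ± 0.38 and 1.09 ± 0.25 log2 units (edgeR's paired test, adjusted p = 0.0219 for Fat4 and 0.0329 for Celsr2). Plcb4, Fosl1, Csnk1g1 and Csnk1e rose by 0.67 to 0.95 log2 units.

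The 3 lower genes included a pair of secreted inhibitors. Frzb, an SFRP family decoy, had 8.92, 4.73, 14.3 and 25.7 CPM in Tomato-positive cells, against 20.5, 14.6, 29.0 and 48.7 CPM in Tomato-negative cells of the same identifiers. It was lower in all 4 pairs, with overlap between the groups (-1.22 ± 0.18 log2 units, edgeR's paired test, adjusted p = 0.00742). Sostdc1, which binds LRP6 and BMP proteins and is expressed in the distal nephron, had 77.9, 60.2, 30.1 and 18.6 CPM in Tomato-positive cells, against 164, 154, 36.3 and 39.6 CPM in Tomato-negative cells. It was lower in all 4 pairs (-0.99 ± 0.19 log2 units, edgeR's paired test, adjusted p = 0.0169). The other was Pdk4, a metabolic kinase gene (-0.72 ± 0.18 log2 units, edgeR's paired test, adjusted p = 0.0409).

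Principal cell and urothelium markers were higher in the same libraries as the ligands. Within a pair, the summed principal cell markers stood at 1.77, 2.13, 2.45 and 2.63 times the negative library's level in CKD627_1, CKD627_2, CKD523_2 and CKD523_3. The summed ligands stood at 1.67, 1.92, 2.30 and 2.83 times in the same order, and Wnt9b at 4.95, 6.86, 5.64 and 5.45 times. Summed urothelium markers had 14.5 to 70.1 CPM in Tomato-positive and 6.41 to 29.2 CPM in Tomato-negative libraries. They stood at 1.33, 2.40, 2.27 and 2.09 times in that order. Of the 5 tested, edgeR called none, and DESeq2 with pairing called 2, both higher, against 6.79% of all genes. Of the 13 principal cell markers, only Aqp4 and Elf5 had a larger difference than Wnt9b. Aqp4, a water channel, rose by 3.37 log2 units and Elf5, a transcription factor, by 2.63 (edgeR's paired test, adjusted p = 0.000597 for Aqp4 and 0.0014 for Elf5). The median of the 13 was 1.04 log2 units in the paired fit. Krt8 (0.49 log2 units) and Tfcp2l1 (0.21) did not pass (edgeR's paired test, adjusted p = 0.234 for Krt8 and 0.656 for Tfcp2l1). Summed loop of Henle, distal and connecting tubule, intercalated cell and proximal tubule markers were all below the negative library's level in every pair, at 0.385 to 0.974 times. Some markers of these lists went the other way. Slc4a1 and Aqp6 of the intercalated cell list were higher in all 4 pairs (0.45 and 0.38 log2 units, edgeR's paired test, adjusted p = 0.114 and 0.185). So was Slc5a2 of the proximal tubule list (0.70 log2 units, edgeR's paired test, adjusted p = 0.081). Of the 18 proximal tubule markers, DESeq2 with pairing called 1 higher and 10 lower, against 6.79% and 7.39% of all genes. Summed fibroblast and pericyte markers stood at 0.768 to 1.97 times and endothelial markers at 0.318 to 1.94 times. By edgeR no gene of either list was called. DESeq2 with pairing called 2 of the 9 tested fibroblast and pericyte markers higher, against 6.79% of all genes. Summed macrophage and leukocyte markers stood at 0.64 to 0.987 times. Of the 7 tested, edgeR's paired test called 1, Cd68, higher (1.40 log2 units, adjusted p = 0.0153). DESeq2 with pairing called 1 higher and 1 lower. Cd3e of T cells was at 0 in all libraries. The part of these cell types in the differences of the Wnt genes was not tested.

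**Figure D4:**
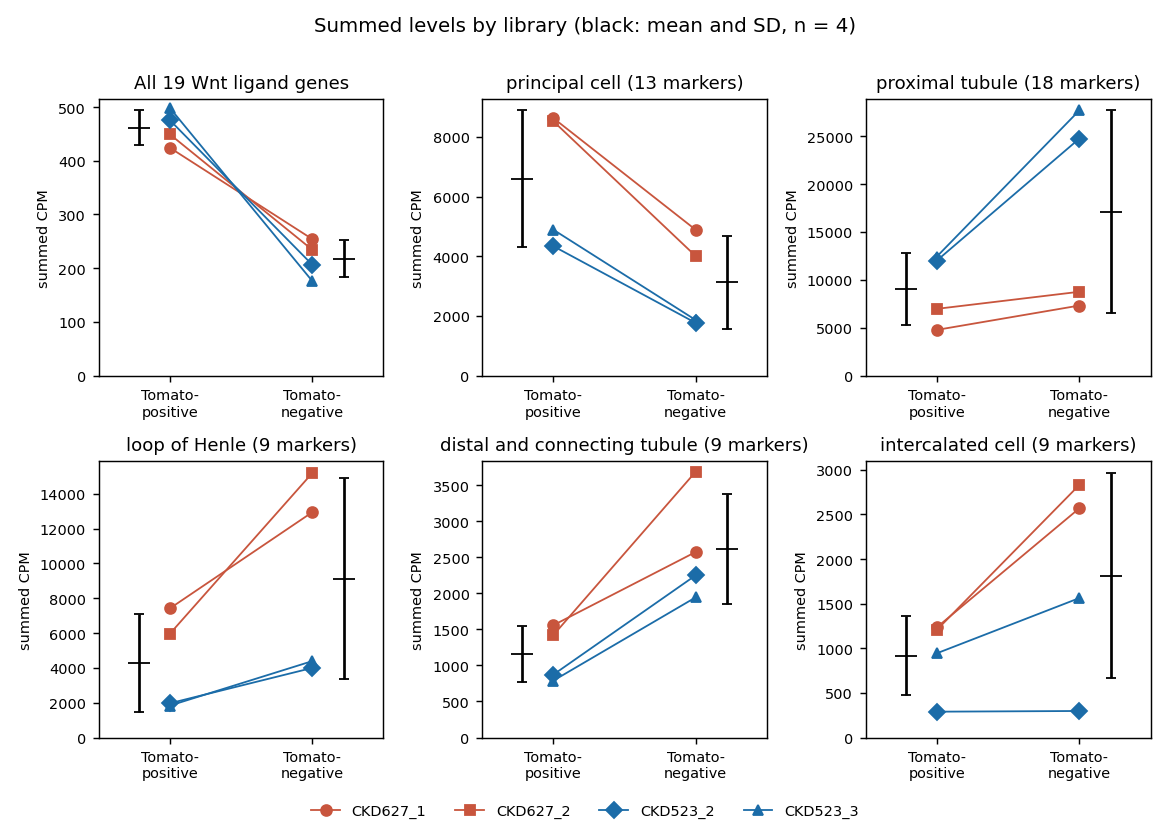
Summed CPM of the 19 ligand genes and of 5 marker lists in each library, Tomato-positive left and Tomato-negative right, with lines joining the libraries of 1 identifier and the mean and SD (n = 4) in black. The ligand sum and the principal cell sum run down to the negative library in all 4 pairs, and the other 4 sums run up.

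The prefixes separated more of these genes than the Tomato groups did, and the same held over all genes tested. By Tomato group, 7.13% of all genes had every positive library above every negative one and 5.69% had every one below. Every CKD627 library was above every CKD523 library for 9 of the 42 genes, against 14.9% of all genes, and below for 4, against 7.2%. Fzd4 averaged 119 CPM in CKD627 and 54.2 CPM in CKD523, and Wnt7a averaged 18.98 CPM in CKD627 and 5.78 CPM in CKD523. The 4 in the opposite order were Fzd5, Lgr4, Notum and Wnt5b, and Fzd5 averaged 31.6 CPM in CKD627 and 67.0 CPM in CKD523. Within the prefixes the median log2 difference between the Tomato groups was 0.12 in CKD627 and 0.20 in CKD523, where that of all genes was -0.01 in CKD627 and 0.00 in CKD523.

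The called genes had the same direction in both prefixes. They were called on these same pairs and were higher in all 4, so this is no separate result. The log2 difference of Wnt9b was 2.54 in CKD627 and 2.40 in CKD523, and that of Tcf7l1 was 1.03 in CKD627 and 0.86 in CKD523. Rnf43 had 0.71 in CKD627 and 0.92 in CKD523, Wnt7b 0.56 in CKD627 and 1.13 in CKD523, Wnt7a 0.78 in CKD627 and 1.33 in CKD523, and Axin2 1.11 in CKD627 and 1.88 in CKD523. For none of these 6 did the difference between prefixes pass (edgeR's interaction test, lowest adjusted p 0.337, Wnt7b). The summed principal cell markers were also higher in CKD627 than in CKD523, at 8521 to 8625 CPM in Tomato-positive libraries of CKD627 and 4337 to 4888 CPM in those of CKD523.

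**Figure D5:**
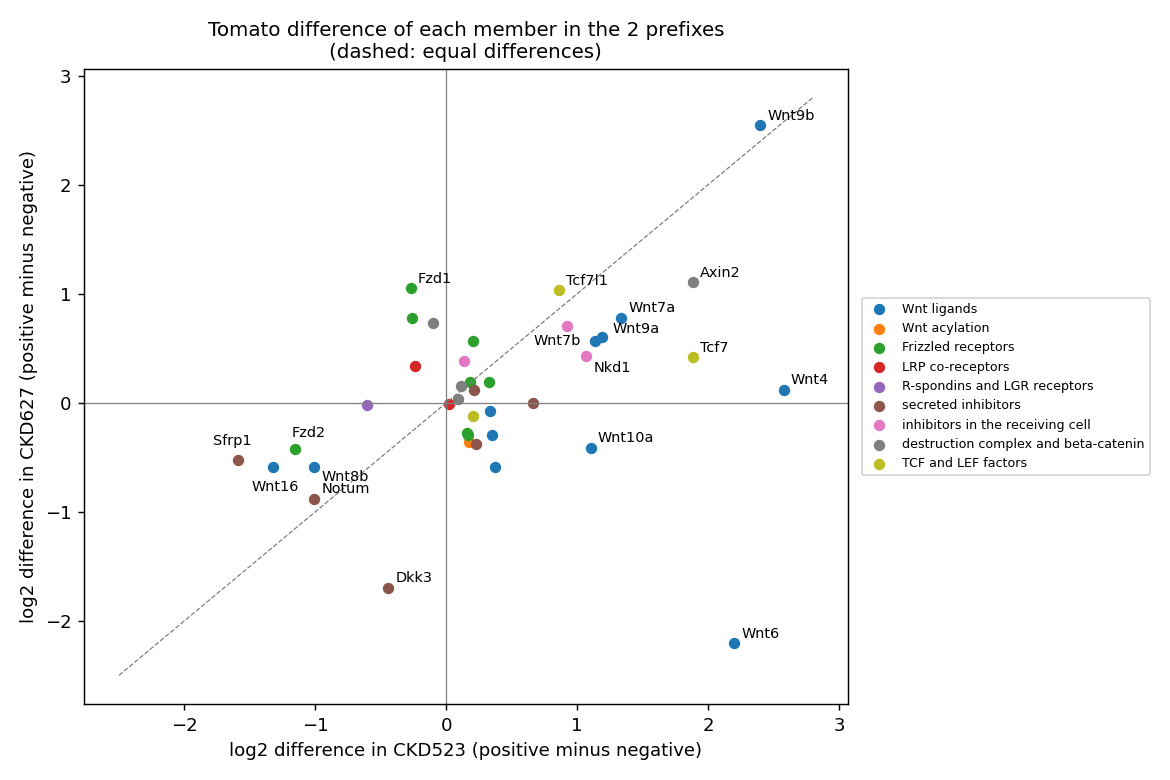
Log2 difference, Tomato-positive minus Tomato-negative, of 40 genes tested in both prefixes, with CKD627 on the vertical and CKD523 on the horizontal axis, coloured by role. Wnt9b lies near the dashed line of equal differences, at 2.54 and 2.40, and Wnt4 lies far below it, at 0.12 in CKD627 and 2.58 in CKD523.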

How the data were processed

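RNA-seq libraries of Tomato-positive and Tomato-negative kidney cells (n = 4 each) were made from total RNA with kits for low input and for Illumina sequencing, per the labels' protocols. The authors deposited 1 table of raw read counts per gene symbol. Reads were aligned with subread, per the file headers, to mm10 with edgeR 3.32.1 and limma 3.46.0 named among the tools, per the submitters' processing notes. Counter, annotation, strand setting and treatment of reads with several matches are not stated in these sources, so reads of overlapping or antisense genes, and of close relatives, cannot be told apart with certainty.

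Counts were tested with edgeR 4.0.16 (TMM scaling, filterByExpr, quasi-likelihood test, 2-sided, Benjamini-Hochberg over 14284 genes, threshold 0.05) in R 4.3.3, without pairing and with the title identifier as a block. The pairing is taken from the titles. After centring on the group means, same-identifier libraries correlated at 0.464, 0.321, 0.33 and 0.465 over genes. Libraries of 1 prefix with different identifiers also correlated, at 0.296 to 0.467, so these correlations cannot tell a pair from a shared prefix. SEs are the log2 difference over the root of F. The interaction test compared the Tomato difference between prefixes (CKD627 minus CKD523). DESeq2 1.42.0, limma-voom (limma 3.58.1), other scalings, filters and left-out libraries were alternatives, and the scripts were tested on simulated data.

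CPM is the count scaled to the library total, and levels per kilobase use merged GENCODE M21 exons (59 of 60 symbols matched 1 gene). Promoters are from RefSeq (GRCm38.p6). No 2 libraries of a group agreed within sampling noise (chi-square over its degrees of freedom 15.5 to 191), and each counted as 1 sample. Members, lists, markers and tests were chosen with earlier results of these data known. Named are the members themselves, with full statistics for those past the threshold, those with an unadjusted p below 0.05 and the feedback genes, and, of the other pathway genes, the 12 with the smallest paired p among those called.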

Additional observations from a re-analysis of the deposited data

Results flagged for a closer look

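Wnt4 had a Tomato difference that differed between the prefixes, at -2.41 log2 units, CKD627 minus CKD523 (edgeR's interaction test, adjusted p = 0.0458). A further 6 genes had both pairs of CKD627 on 1 side and both pairs of CKD523 on the other. Their log2 differences in CKD627, Tomato-positive minus Tomato-negative, were 1.05 for Fzd1, 0.775 for Fzd4, 0.339 for Lrp6, -0.274 for Fzd8, -0.588 for Wnt5b and -2.21 for Wnt6. None of these passed edgeR's interaction test with all libraries, with adjusted p-values of 0.0812 for Fzd1, 0.243 for Fzd4, 0.322 for Lrp6, 0.607 for Fzd8, 0.426 for Wnt5b and 0.272 for Wnt6. Fzd1 passed that test by DESeq2 (adjusted p = 0.00467). Leaving out CKD627_1 or CKD627_2 left 1 pair in that prefix, so only sizes are given. The edgeR difference between the prefixes for Fzd1 was 1.38 log2 units without CKD627_1 and 1.33 without CKD627_2. Without CKD627_2, that of Fzd4 was 1.69 and that of Lrp6 was 0.91. Wnt6 had at most 42 counts in a library. Among 84 groups of 4 libraries, 2 held a library far from the others, where chance gives about 1 in 20. Nkd1 had 1.46 CPM in the Tomato-negative library of CKD523_3, with 3.61 to 4.00 CPM in the other 3, and Wnt8b had 2.06 CPM in that of CKD523_2, with 1.29 to 1.35 CPM in the other 3.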

How the results depend on the processing

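The count of Wnt members called by the unpaired edgeR fit (2) became 6 with the replicate block and 8 with the prefix as a covariate (Sfrp1 lower). It became 10 in prefix CKD523 alone (Lgr4 and Sfrp1 lower) and 3 in CKD627 alone (Wnt9b and Fzd1 higher, Dkk3 lower). With DESeq2 it was 6, and with upper-quartile scaling, library size alone or no filter beyond 1 count it was 1. Without any 1 library it was 0. The share of all genes called is not given for the prefix covariate, the single prefixes or the left-out settings. Those counts cannot be weighed against it. The count of the paired fit (6) became 10 with DESeq2 and ran from 1 to 8 without 1 pair: 1 without CKD523_3 or CKD627_2, 3 without CKD523_2 and 8 without CKD627_1. The count of the interaction test (1) became 0 with library size alone and 2 with DESeq2; without 1 pair, which was tried after seeing the data, it ran from 0 to 8. Of the other Wnt pathway genes, the unpaired fit called 0, against 12 with the replicate block, 18 with the prefix as a covariate, 25 in CKD523 alone, 5 in CKD627 alone and 8 with DESeq2. The paired fit called 12, against 24 with DESeq2 and 1 to 13 without 1 pair. Single log2 differences turned sign in 3 cases, all of genes not called: Apc in CKD523 alone (-0.0995), Apc in the paired fit without CKD627_1 (-0.0032) and Lgr5 in the unpaired fit without the Tomato-positive library of CKD627_1 (-0.0124; up to 1.28 without another library). In the paired fit 286 of the values of named genes kept their direction and side of the threshold, 41 lost the call and 13 gained it. The cause was not tested. Genes under about 10 counts in a library, such as Dkk1 and the R-spondins, were limited by depth.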
